A study of Homo sapiens with 8 samples.

Results

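The genes described here are the effectors of ATF4, the transcription factor of the integrated stress response, together with the enzymes, transporters and charging enzymes that supply a cell with amino acids. They were chosen by name as 38 of the 26475 gene symbols in the count table, and 37 of the 38 had enough counts to be tested, beside 12401 tested genes in all. The samples are 8 bulk RNA libraries of MOLM-13, an established human acute myeloid leukemia line labelled wild type and carrying the KMT2A-AF9 (MLL-AF9) rearrangement. The 4 groups of 2 libraries each are VTP50469 plus WM1119 (the combination), VTP50469 alone, WM1119 alone, and the vehicle DMSO. VTP50469 keeps Menin from binding KMT2A and WM1119, spelled WM119 in the sample labels, inhibits the histone acetyltransferase KAT6A. Neither dose and duration nor the origin of replicates (separate cultures or one) is stated in the sources used here, so p-values measure the spread between these libraries, which may be technical. All cells are of 1 line.

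When amino acids run short or misfolded protein accumulates, kinases phosphorylate the initiation factor eIF2, general translation slows, and the ATF4 message is translated more. ATF4 then pairs with C/EBP proteins at C/EBP-ATF response elements and drives genes that make serine, asparagine, proline and cysteine, import amino acids and charge tRNAs. In leukemia cells this programme is known for the demand of fast growth for serine, one-carbon units and asparagine. Since ATF4 is controlled largely at translation, the level of its RNA is not a measure of its protein.

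The response element was searched as TGATGNAA on both strands of the 250 bases before each start in the RefSeq promoter table (GRCh38.p14), with no other motif searched. Of 35116 such stretches 3.14% held it, and so did those of 6 of the 31 members found in the table, against 1061 of 27305 genes (3.89%). NUPR1, EIF4EBP1, PSPH, SHMT2, ALDH1L2, PYCR1 and SLC7A11 had no entry. The 6 matches are shown because they are the members' own candidate letters for the factor that names the programme, each as 30 bases on the strand of its gene with the element in capitals. TTGCATCA and TTTCATCA are the element read on the opposite strand. All 6 lie upstream of an annotated RefSeq start because only such bases were searched. By the GENCODE gene spans only the ATF3 match lies before its gene, and the others fall inside theirs. The GARS match at 30594834 lies in a gene that spans 30580533 to 30634033.
ASNS, chr7:97872458-97872487, minus strand: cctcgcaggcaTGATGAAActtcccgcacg
ATF3, chr1:212565205-212565234, plus strand: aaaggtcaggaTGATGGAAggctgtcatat
SLC1A5, chr19:46784893-46784922, minus strand: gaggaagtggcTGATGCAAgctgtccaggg
CHAC1, chr15:40953251-40953280, plus strand: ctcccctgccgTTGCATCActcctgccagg
AARS, chr16:70289675-70289704, minus strand: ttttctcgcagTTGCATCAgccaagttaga
GARS, chr7:30594834-30594863, plus strand: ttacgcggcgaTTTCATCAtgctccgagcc
None of these 6 genes passed the edgeR test in the main fit of all 8 libraries, in any comparison below. Other fits called some of them, and not all of those fits are given here. In the combination against DMSO, DESeq2 called ASNS, CHAC1 and GARS lower, where it called 7.58% of all genes lower. With an offset for transcript length and GC content edgeR called ASNS and GARS lower, where 11.2% of all genes were lower. Under that offset the combination also had GARS lower against VTP50469, and ASNS and GARS lower against WM1119, where 5.94% and 7.69% of all genes were called. Scaled by library size alone, ASNS was called lower against DMSO, where 7.45% of all genes were called. An edgeR fit of VTP50469 and DMSO alone called CHAC1 lower, where 11.1% of all genes were called. A match describes letters only, and the absence of one in the other members says nothing of ATF4 binding.

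Library totals ran from 18092906 to 23634468 counts. Levels are given as CPM, the counts of a gene scaled to a common library total with TMM factors, and a gene is called where the edgeR quasi-likelihood F test gave a Benjamini-Hochberg adjusted p under 0.05 over all tested genes. Replicate 2 of the combination stood apart. It held 12972 genes with a count, against 14142 to 14544 in the other 7 libraries, and its Pearson correlation with the other combination library was 0.9746 (log2 CPM), against 0.9949 to 0.9973 within the other pairs. Of the 9 markers of MOLM-13 fixed for this check all reached 1 CPM, with a summed level of 8500 to 11400 CPM in the combination, 3100 to 3730 in VTP50469, 2320 to 2390 in WM1119 and 1270 to 1300 in DMSO, chiefly through the lysozyme and myeloperoxidase genes LYZ and MPO. HBB, ALAS2, CD3E, EPCAM, KRT19 and COL1A2, which define erythroid, T, epithelial and stromal cells, had 0 counts in every library. Other markers of these cells and of B cells were detected at low levels, namely CD3D at 1.36 to 4.49 CPM, KRT18 at 0.541 to 2.73, KRT8 at 0.216 to 1.86, COL1A1 at 0.372 to 0.785 and CD79A at 0.307 to 2.67. The B cell markers summed to 1.10 to 3.16 CPM in the combination and 0.595 to 0.664 CPM in DMSO, and the epithelial and stromal markers to 3.22 to 4.96 CPM in the combination and 1.24 to 2.04 CPM in DMSO. NKG7, also a granule gene, made up most of the T and NK sum of 33.2 to 84.3 CPM in the combination and 22.1 to 25.1 CPM in DMSO. In bulk RNA, fewer cells of one state and less RNA per cell cannot be told apart, and the part that the rise of these myeloid genes has in the results below was not tested.

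With both inhibitors together, PSAT1 of serine synthesis, both enzymes of cysteine synthesis (CBS and CTH), PYCR1 of proline synthesis, the leucine importer SLC7A5 and the mTORC1 inhibitors DDIT4 and SESN2 fell. ATF4 itself did not pass the test, nor did PHGDH and PSPH of serine synthesis and ALDH18A1 of proline synthesis. In the combination against DMSO 9 of the 37 members fell (CBS, CTH, DDIT4, MTHFD2, PSAT1, PYCR1, SESN2, SLC7A5 and STC2) and 1 rose (SLC1A4). Those 9 are 24.3% of the members, where 3.44% of all tested genes fell, and 5.85% of all tested genes rose. The median log2 change of the members was -0.55, against 0.01 over all tested genes. Of the 37 members 30 were below 0, as were 6125 of the 12401 tested genes. Without any fit, 26 of 37 members had both combination libraries below both DMSO libraries, a pattern of 30.9% of all tested genes, and 2 (PCK2 and SLC1A4) had both above, a pattern of 29.0%. These calls used the spread of all 4 groups. In a fit of the combination and DMSO libraries alone 0 members and 0 of all genes were called, with CBS lowest at an adjusted p of 0.118. DESeq2 called 17 members lower, where it called 7.58% of all genes lower, and SLC1A4 higher. Beside the 9 above, the 17 hold ALDH18A1, ASNS, CHAC1, GARS, PSPH, SLC6A9, TRIB3 and VLDLR. With the offset for transcript length and GC content edgeR called ALDH18A1, ASNS, GARS, PSPH, SLC6A9 and TRIB3 lower, where 11.2% of all genes were lower. Scaled by library size alone it called ASNS, PSPH and TRIB3 lower, where 7.45% of all genes were called. For these genes the call thus depended on the tool and, for some, on the scaling or offset. Below they count as not called.

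Since the combination libraries differed, the count was also taken without each. Without replicate 2, 15 members fell and 1 rose, where 5.6% of all genes fell and 8.9% rose, and the median log2 change of the members was -0.41. Without replicate 1, 22 fell and 5 rose, where 31.9% of all genes fell and 28.9% rose. All 10 members named above were called in both of these fits. Leaving out a VTP50469 or a WM1119 library left 3 members called (CBS, DDIT4 and STC2) among 392 to 446 called genes in all, and leaving out a DMSO library left 0 among 69 and 79 called genes, with fewer libraries behind the spread.

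**Figure D1:**
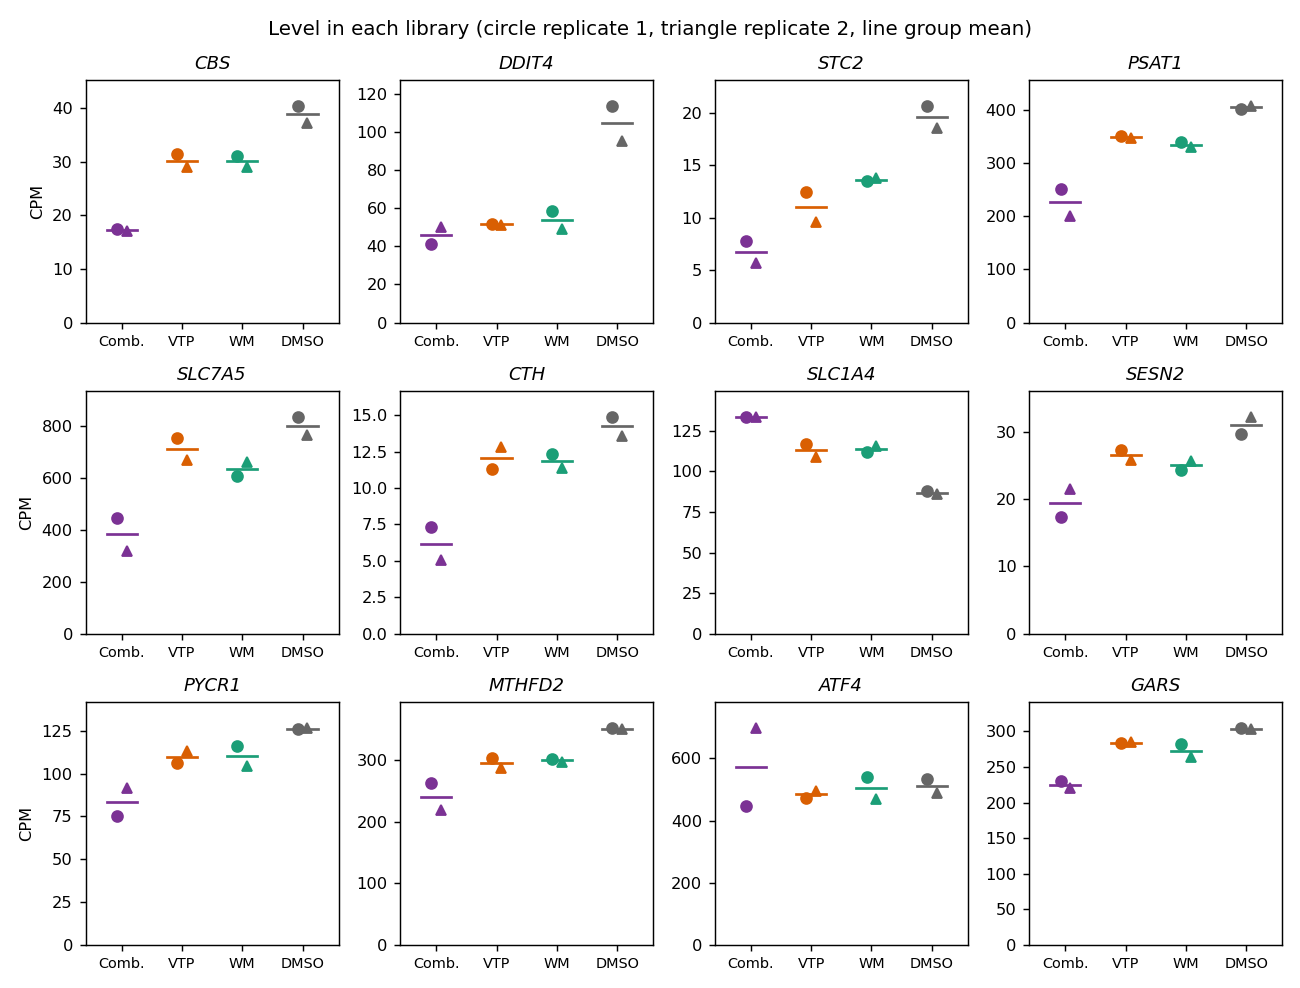
Level in CPM of the 10 members called in the combination against DMSO, and of ATF4 and GARS, in each library (circle, replicate 1; triangle, replicate 2; line, mean of the group), with VTP and WM standing for VTP50469 and WM1119 and each axis starting at 0. In all but ATF4 both combination libraries lie outside the range of the DMSO libraries, and the means of the single inhibitors lie between those of the combination and DMSO; the ATF4 libraries of the combination fall on either side of DMSO.

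The transcription factors gave no call, with a median log2 change of -0.08 over the 4 tested. ATF4 had 448.3 and 697.7 CPM in the combination, 472.2 and 496.0 in VTP50469, 538.8 and 467.8 in WM1119, and 533.7 and 488.3 in DMSO. Only replicate 2 of the combination stood above the rest, and the log2 change was 0.17 ± 0.21 (SE, adjusted p = 0.602), which turned to -0.17 without that library. ATF5, a relative of ATF4 that is also translated under eIF2 phosphorylation, had 46.3 and 53.2 CPM in the combination, 48.3 and 47.4 in VTP50469, 65.8 and 59.7 in WM1119, and 64.7 and 60.0 in DMSO. The combination and VTP50469 libraries were all below the DMSO libraries, and the log2 change in the combination was -0.33 ± 0.14 (adjusted p = 0.165). DDIT3 (CHOP), the factor tied to cell death under lasting stress, had 3.77 and 13.3 CPM in the combination, 2.65 and 4.17 in VTP50469, 4.51 and 4.22 in WM1119, and 3.95 and 5.41 in DMSO. Its log2 change of 0.85 ± 0.56 (adjusted p = 0.314) came from replicate 2 and turned to -0.30 without it. ATF3, an immediate stress-induced repressor, reached at most 5.11 CPM in any library (log2 change -0.35 ± 0.35). NUPR1, a small chromatin protein induced by stress, was left out of the test: it had 8 counts in replicate 2 of the combination, 2 in replicate 1 of DMSO and 0 elsewhere.

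Among the feedback and growth regulators 2 of 6 fell in the combination (median log2 change -0.57). DDIT4 (REDD1), which restrains mTORC1 through the TSC complex, had 41.3 and 50.1 CPM in the combination, 51.9 and 51.0 in VTP50469, 58.3 and 49.2 in WM1119, and 113.6 and 95.1 in DMSO. All 6 treated libraries lay below both DMSO libraries, and the combination stood at 0.438 of the DMSO level (log2 change -1.19 ± 0.17, adjusted p = 0.0108). SESN2, the leucine-binding sestrin that holds mTORC1 back when leucine is low, had 17.3 and 21.5 CPM in the combination, 27.4 and 25.9 in VTP50469, 24.4 and 25.7 in WM1119, and 29.7 and 32.3 in DMSO. Both combination libraries were below the 4 single-inhibitor libraries and those below both DMSO libraries, and the log2 change was -0.68 ± 0.15 (adjusted p = 0.044).

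The other 4 regulators were not called. CHAC1, which breaks down glutathione and carries the element shown above, had 2.84 and 1.67 CPM in the combination, 1.91 and 2.81 in VTP50469, 3.41 and 3.33 in WM1119, and 6.82 and 4.22 in DMSO. All treated libraries were below both DMSO libraries, but the DMSO libraries were themselves far apart, and the log2 change of -1.27 ± 0.38 had an adjusted p of 0.0861. TRIB3, a pseudokinase that feeds back on ATF4, had a log2 change of -0.46 ± 0.14 (adjusted p = 0.0857). PPP1R15A (GADD34), which directs the phosphatase that restores eIF2, and EIF4EBP1, which blocks the cap-binding factor eIF4E, had log2 changes of 0.12 ± 0.18 and 0.36 ± 0.30. EIF4EBP1 had 300.8 and 601.2 CPM in the combination and 349.1 and 352.8 CPM in DMSO, so its 2 combination libraries lay on opposite sides of DMSO. Without replicate 2 of the combination the changes of PPP1R15A and EIF4EBP1 were -0.09 and -0.21.

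Serine is made in 3 steps, by PHGDH, PSAT1 and PSPH in that order, and the mitochondrial enzymes SHMT2, MTHFD2 and ALDH1L2 turn it into glycine and one-carbon units. Of these 6 genes 2 fell (median log2 change -0.56). PSAT1 had 252.3 and 201.7 CPM in the combination, 351.2 and 348.2 in VTP50469, 340.4 and 330.0 in WM1119, and 403.1 and 408.6 in DMSO. The 2 combination libraries were the lowest of the 8 and the DMSO libraries the highest, with the combination at 0.559 of the DMSO level (log2 change -0.84 ± 0.14, adjusted p = 0.0177). MTHFD2, the folate dehydrogenase that proliferating cells use, had 262.4 and 219.1 CPM in the combination, 303.4 and 286.9 in VTP50469, 302.0 and 297.2 in WM1119, and 352.2 and 350.5 in DMSO. The single-inhibitor libraries again lay between the combination and DMSO, and the log2 change in the combination was -0.55 ± 0.13 (adjusted p = 0.0493), just inside the threshold. With an offset for transcript length and GC content the change was -0.27 and not called by edgeR (adjusted p = 0.0879).

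The rest of the serine and folate enzymes did not pass the edgeR test, though DESeq2 called PSPH lower (adjusted p = 0.0269). PSPH had 29.1 and 33.7 CPM in the combination and 45.5 and 47.4 CPM in DMSO (log2 change -0.57 ± 0.16, adjusted p = 0.0727). PHGDH, the entry step, had 259.2 and 379.6 CPM in the combination and 274.9 and 268.9 CPM in DMSO, with its combination libraries on either side of DMSO (log2 change 0.23 ± 0.20, and -0.06 without replicate 2). SHMT2 ranged from 315.6 to 378.0 CPM over the 8 libraries, with a log2 change of -0.11 ± 0.13. ALDH1L2, which oxidizes formyl-folate in mitochondria, had 49.6 CPM in replicate 1 of the combination, 12.2 in replicate 2, and 71.9 and 60.4 in DMSO. The SE of its log2 change of -1.09 was 0.57, the widest of the 37 members.

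Of the 6 enzymes that make asparagine, cysteine, proline and phosphoenolpyruvate 3 fell (median log2 change -0.64). CBS, which joins homocysteine to serine on the way to cysteine, had 17.4 and 17.1 CPM in the combination, 31.5 and 29.0 in VTP50469, 31.1 and 29.1 in WM1119, and 40.5 and 37.2 in DMSO. The combination libraries lay close to each other, at 0.445 of the DMSO level (log2 change -1.17 ± 0.13, adjusted p = 0.00582), the lowest adjusted p among the members. GRCh38 carries a near-identical copy of this gene, CBSL, and how reads shared with it were assigned is not stated. CTH, which releases cysteine from the product of CBS, had 7.29 and 5.08 CPM in the combination, 11.3 and 12.8 in VTP50469, 12.4 and 11.4 in WM1119, and 14.9 and 13.6 in DMSO. Both combination libraries were below every other library (log2 change -1.19 ± 0.21, adjusted p = 0.0217), so the consecutive enzymes of the transsulfuration route fell together.

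PYCR1, which completes proline synthesis, had 75.3 and 91.5 CPM in the combination, 106.3 and 113.1 in VTP50469, 116.0 and 104.2 in WM1119, and 125.9 and 126.6 in DMSO. The single-inhibitor libraries lay between the combination and DMSO, with a log2 change in the combination of -0.60 ± 0.14 (adjusted p = 0.0486), just inside the threshold. PYCR1 lost this call with RLE in place of TMM factors, with no count filter, with a replicate block and in a fit of the combination and DMSO libraries alone. ALDH18A1, which starts the proline route from glutamate, had 105.7 and 74.5 CPM in the combination and 147.7 and 143.2 CPM in DMSO (log2 change -0.69 ± 0.19, adjusted p = 0.065). ASNS, which makes asparagine and carries the element shown above, had 114.9 and 114.6 CPM in the combination, 132.4 and 140.7 in VTP50469, 149.8 and 135.6 in WM1119, and 157.0 and 158.0 in DMSO. No combination library of ASNS overlapped another group, yet the log2 change of -0.46 ± 0.12 had an adjusted p of 0.0604. PCK2, the mitochondrial enzyme that makes phosphoenolpyruvate, ranged from 83.0 to 99.0 CPM (log2 change 0.17 ± 0.13).

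Of the 8 amino acid transporters 1 fell and 1 rose (median log2 change -0.72). SLC7A5 (LAT1), which brings in leucine and other large neutral amino acids, had 447.1 and 320.3 CPM in the combination, 755.6 and 668.8 in VTP50469, 607.3 and 662.1 in WM1119, and 835.6 and 764.2 in DMSO. The combination stood at 0.480 of the DMSO level (log2 change -1.06 ± 0.18, adjusted p = 0.0198), below all 6 other libraries. Its transcribed copies SLC7A5P1 and SLC7A5P2 had 0.496 to 2.65 CPM and 0.310 to 1.92 CPM. SLC3A2 (4F2hc), the heavy chain that SLC7A5 and SLC7A11 need at the membrane, had 286.4 and 340.5 CPM in the combination and 375.9 and 365.5 CPM in DMSO (log2 change -0.24 ± 0.14, adjusted p = 0.26). SLC1A4 (ASCT1), which carries serine, alanine and other small neutral amino acids, had 133.3 and 133.6 CPM in the combination, 117.1 and 109.1 in VTP50469, 112.1 and 115.6 in WM1119, and 87.7 and 85.8 in DMSO. It was the only member to rise, with all 6 treated libraries above both DMSO libraries and a log2 change of 0.62 ± 0.12 (adjusted p = 0.0242). Scaled by library size alone, its change was 0.51 with an adjusted p of 0.0718.

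SLC7A11 (xCT), which exchanges cystine for glutamate, had 33.8 and 17.5 CPM in the combination, 41.6 and 39.7 in VTP50469, 19.9 and 30.2 in WM1119, and 45.5 and 45.4 in DMSO. The combination and WM1119 libraries were both low and unequal, with log2 changes of -0.82 ± 0.32 in the combination and -0.86 ± 0.32 in WM1119 that did not pass (adjusted p = 0.147 and 0.929). SLC7A1, the importer of arginine and lysine, SLC38A2, an importer of alanine and glutamine, and SLC6A9, the glycine transporter GlyT1, had log2 changes of -0.83 ± 0.34, -0.63 ± 0.26 and -1.20 ± 0.35 in the combination. Each was lower in replicate 2 than in replicate 1, and none was called (lowest adjusted p 0.0812, for SLC6A9). SLC1A5 (ASCT2), the glutamine importer, ranged from 507.6 to 566.3 CPM, with a log2 change of -0.06 ± 0.11.

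Of the charging enzymes and the tRNA export factor 0 of 5 were called (median log2 change -0.15). GARS, the glycyl-tRNA synthetase, had 229.7 and 219.7 CPM in the combination, 283.4 and 284.7 in VTP50469, 281.9 and 263.8 in WM1119, and 304.7 and 303.1 in DMSO. The combination libraries were the lowest, but the log2 change of -0.44 ± 0.11 had an adjusted p of 0.0599. AARS, WARS and SARS, which charge alanine, tryptophan and serine tRNAs, had log2 changes of -0.15, -0.0013 and -0.13, and only AARS had both combination libraries below both DMSO libraries. XPOT, which exports tRNAs from the nucleus, had 250.4 and 113.3 CPM in the combination and 354.3 and 318.2 CPM in DMSO (log2 change -0.89 ± 0.34, adjusted p = 0.14).

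STC2, a secreted glycoprotein induced by stress, had 7.80 and 5.70 CPM in the combination, 12.5 and 9.58 in VTP50469, 13.5 and 13.8 in WM1119, and 20.7 and 18.5 in DMSO. It had the largest fall of the 37 members, to 0.346 of the DMSO level (log2 change -1.53 ± 0.22, adjusted p = 0.0109), and its combination libraries were below all others. VLDLR, a lipoprotein receptor, had 21.5 and 14.5 CPM in the combination, 21.2 and 20.7 in VTP50469, 24.3 and 26.6 in WM1119, and 34.7 and 28.3 in DMSO. Its log2 change was -0.80 ± 0.21 (adjusted p = 0.0638).

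**Figure D2:**
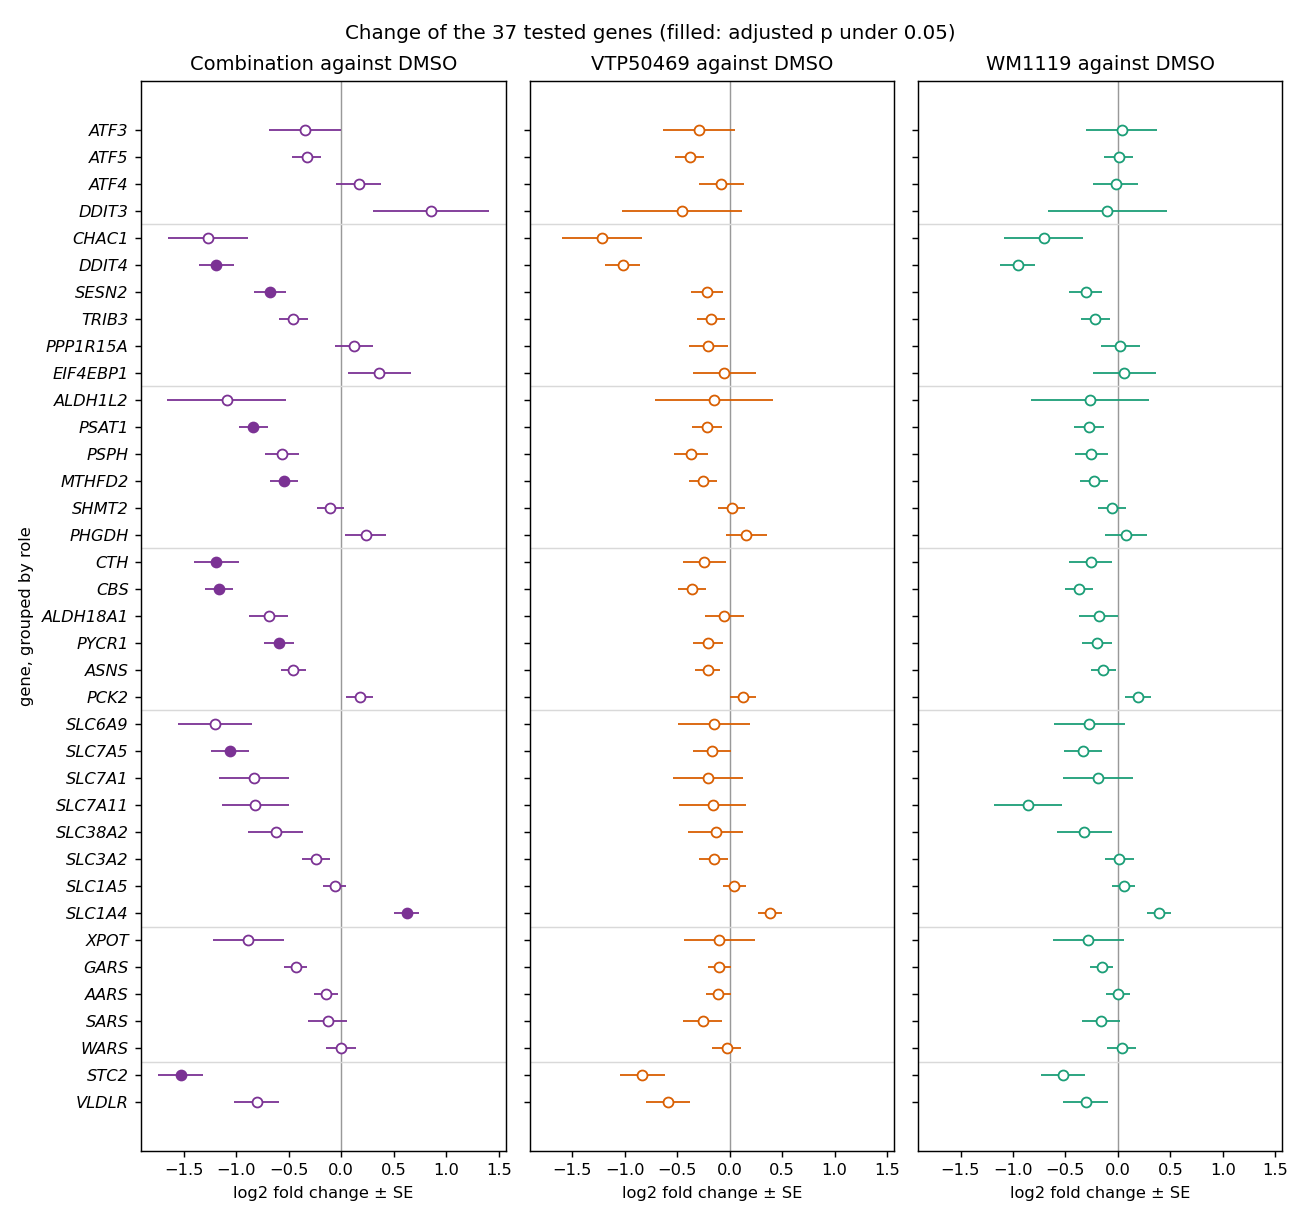
Log2 fold change against DMSO (point) with its SE (bar) of the 37 tested members, grouped by role from top to bottom, in the combination, VTP50469 and WM1119; filled points have an adjusted p under 0.05. The 10 filled points are all in the combination, 9 of them left of 0, and DDIT4 is near -1 in all 3 panels.

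For either inhibitor alone the same genes were read for what each drug does by itself. In VTP50469 against DMSO 0 of the 37 members were called, where 0.169% of all genes were, and the median log2 change was -0.18. An unadjusted edgeR p under 0.05 was found for 7 members and for 837 of the 12401 tested genes. In 24 members both VTP50469 libraries were below both DMSO libraries, a pattern of 27.6% of all genes. In WM1119 against DMSO 0 members and 0.0% of all genes were called, and the median was -0.19. Here 5 members and 612 of the 12401 tested genes had an unadjusted edgeR p under 0.05. In 21 members both WM1119 libraries were below both DMSO libraries, a pattern of 20.9% of all genes. These comparisons and that of the combination share the DMSO libraries.

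DDIT4 was the lowest-p member of both single treatments. Its log2 change was -1.02 ± 0.17 in VTP50469 (adjusted p = 0.109) and -0.96 ± 0.17 in WM1119 (adjusted p = 0.333). DESeq2 called DDIT4 alone among the members in each single treatment, where it called 1.54% of all genes in VTP50469 and 0.62% in WM1119. Without 1 library the log2 change of DDIT4 ran from -1.14 to -0.89 in VTP50469 and from -1.08 to -0.82 in WM1119. That of STC2 in VTP50469 ran from -1.03 to -0.67. In a fit of the VTP50469 and DMSO libraries alone 11 members were called, where 11.1% of all genes were, and of these members SLC1A4 rose and ATF5, CBS, CHAC1, DDIT4, MTHFD2, PSAT1, PSPH, SARS, STC2 and VLDLR fell. The same kind of fit for WM1119 and DMSO called 0 members. STC2 had log2 changes of -0.83 ± 0.21 in VTP50469 and -0.53 ± 0.21 in WM1119, CBS -0.36 ± 0.13 and -0.37 ± 0.13, and SLC1A4 0.38 ± 0.12 and 0.39 ± 0.12, none called (adjusted p 0.318 or above). SLC7A5, PSAT1 and CTH, which had log2 changes of -0.84 to -1.19 in the combination, had changes of -0.17 to -0.24 in VTP50469 and of -0.26 to -0.33 in WM1119.

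Set against each single inhibitor, the combination asks what the second drug adds. Against VTP50469 0 of 37 members were called, where 0.395% of all genes were, with a median log2 change of -0.22. An unadjusted edgeR p under 0.05 was found for 10 members and for 2225 of the 12401 tested genes. CBS came closest, at -0.81 ± 0.13 (adjusted p = 0.0683), followed by SLC7A5 at -0.89 ± 0.18 (adjusted p = 0.102). DESeq2 called CBS, CTH, PSAT1 and SLC7A5 lower, where it called 1.65% of all genes lower and 684 genes in either direction. In 21 members both combination libraries were below both VTP50469 libraries, a pattern of 24.1% of all genes. Against WM1119 only CBS was called, lower by a log2 change of -0.80 ± 0.13 (adjusted p = 0.0453), where 0.411% of all genes were called lower, and the median of the members was -0.31. CBS lost that call in a fit of these groups alone and whenever a VTP50469, WM1119 or DMSO library was left out, and DESeq2 called CTH, PSAT1, SLC7A5 and STC2 lower beside it, where it called 2.05% of all genes lower. In 20 members both combination libraries were below both WM1119 libraries, a pattern of 20.1% of all genes. The log2 change of DDIT4 in the combination was -0.17 ± 0.17 against VTP50469 and -0.23 ± 0.17 against WM1119 (adjusted p = 0.544 and 0.459).

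The departure of the combination from the sum of both single log2 changes gave 0 called members, where 0.0% of all genes were called. By edgeR 1 member had an unadjusted p under 0.05, as did 273 of the 12401 tested genes. That member was DDIT4, at 0.79 ± 0.24 (adjusted p = 0.938), whose 3 treated groups lay at similar levels. CBS, CTH and SLC7A5 had departures of -0.44 ± 0.19, -0.69 ± 0.30 and -0.56 ± 0.26, with the same adjusted p of 0.938. DESeq2 also called 0 members.

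The difference between the 2 combination libraries had a trend with transcript length among the members. Of the 10 members whose canonical transcript is over 4000 bases long, 9 were lower in replicate 2 than in replicate 1 (median log2 ratio -0.66), and of the 27 shorter ones 10 were lower (median 0.21). Across these 37 genes, which share both libraries and are not independent replicates, Spearman's rho between length and the log2 ratio of replicate 2 to replicate 1 was -0.72, against -0.59 over 12113 tested genes. The log2 ratio of the members to DMSO had a rho with length of -0.54 in replicate 2 and of -0.01 in replicate 1. Other libraries also had a trend with length. Over all tested genes with a matched length, rho for the level relative to the DMSO mean was -0.52 in combination replicate 2 and -0.13 in replicate 1. It was -0.49 and 0.08 in WM1119 replicates 1 and 2, and 0.01 and -0.27 in those of VTP50469. The DMSO libraries themselves had 0.20 and -0.20. ALDH1L2, XPOT, SLC7A1 and SLC7A11 at the long end and DDIT3, EIF4EBP1 and ATF4 at the short end lay far apart between the 2 libraries, by 0.64 or more on the log2 scale in either direction. SLC6A9 and CHAC1, with transcripts of 3206 and 1520 bases, were also lower in replicate 2, at log2 ratios of -0.99 and -0.76. CBS, ASNS, GARS, SLC1A4 and SLC1A5 differed between the combination libraries by at most 0.06 on the log2 scale. With an offset for transcript length and GC content 20 members fell and 1 rose in the combination, where 11.2% of all genes fell and 12.1% rose. Of the 10 members called without it 9 kept their call, and MTHFD2 lost it.

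**Figure D3:**
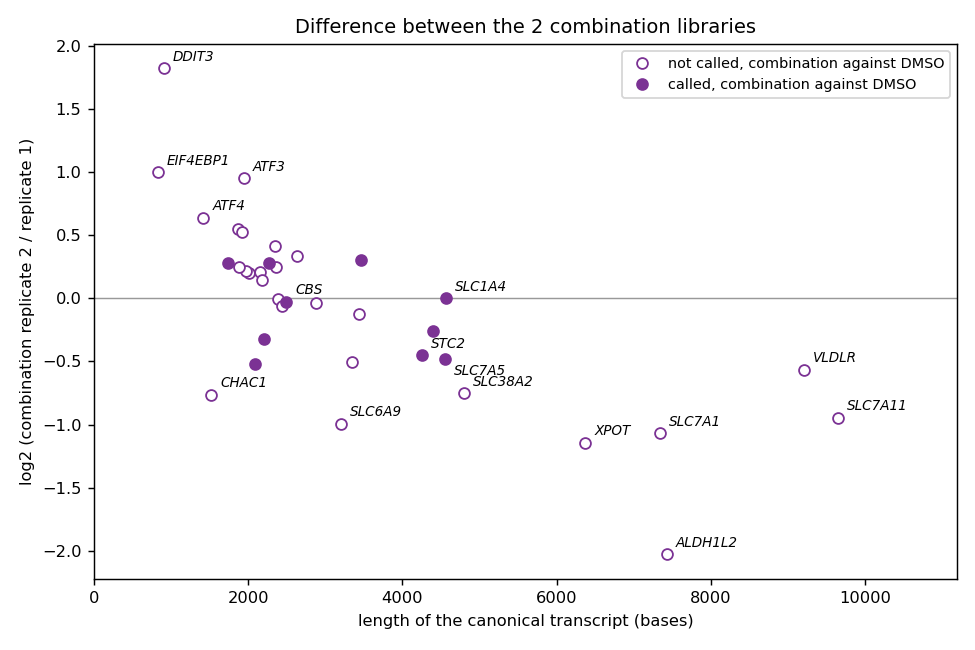
Log2 ratio of combination replicate 2 to replicate 1 of each tested member against the length of its canonical transcript in bases (GENCODE), filled where the member was called in the combination against DMSO. Most long transcripts, such as ALDH1L2 at a log2 ratio of -2.03, were lower in replicate 2. Short ones lay on both sides, such as DDIT3 at 1.82 and CHAC1 at -0.76, while CBS and SLC1A4 lie near 0.

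Neighbouring pathways were read from 8 further lists, against the same background of 3.44% of genes lower and 5.85% higher in the combination. Of 14 tested further ATF4 targets 2 fell and 1 rose, with a median log2 change of -0.01. The 2 that fell were GPT2, the mitochondrial alanine transaminase, at -0.69 ± 0.12 (adjusted p = 0.0189), and CLDND1, a claudin-domain membrane protein, at -0.84 ± 0.15 (adjusted p = 0.0208). The C/EBP factor CEBPB, a partner of ATF4, rose by 0.82 ± 0.18 (adjusted p = 0.0379), with 18.1 and 21.3 CPM in the combination and 11.7 and 10.6 CPM in DMSO. Of the 15 sensors and regulators of eIF2 0 were called (median -0.10). The lowest-p genes there were KIAA0141 (DELE1, a relay of mitochondrial stress) at 0.35 ± 0.12, the GCN2 activator GCN1 at -0.56 ± 0.23 and EIF2AK4, which is GCN2, at -0.56 ± 0.25. Of 19 other genes of cytosolic tRNA charging 0 were called (median -0.10), with LARS, TARS and NARS lowest in p at -0.72, -0.48 and -0.49. NARS stands in both that list and the list of further ATF4 targets. Of 12 other genes of folate and glycine metabolism 0 were called (median -0.15), with SFXN1, MTHFD1L and GART lowest in p at -0.50, -0.32 and -0.60.

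Of 15 other amino acid transporters SLC43A2 (LAT4), which also carries leucine, rose, with 53.6 and 77.4 CPM in the combination and 26.2 and 28.1 CPM in DMSO (log2 change 1.27 ± 0.19, adjusted p = 0.0129). It thus went the opposite way to SLC7A5. Of 21 genes of leucine sensing and mTORC1 2 rose and 0 fell (median -0.06). SESN3, the sestrin related to SESN2, had 26.9 and 25.5 CPM in the combination, 11.5 and 14.7 in VTP50469, 2.73 and 4.97 in WM1119, and 2.71 and 2.99 in DMSO (log2 change 3.20 ± 0.29, adjusted p = 0.00323). RRAGD, a Rag GTPase, rose by 1.57 ± 0.26 (adjusted p = 0.0186), and RPTOR, a core part of mTORC1, had a log2 change of -0.60 ± 0.15 (adjusted p = 0.0594).

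In the chaperone arm of the unfolded protein response some genes rose. Of 19 chaperones and targets of ATF6 and XBP1 5 rose and 0 fell (median 0.46). HSPA5 (BiP), the main chaperone of the endoplasmic reticulum, had 970.7 and 1168 CPM in the combination, 793.3 and 861.7 in VTP50469, 713.5 and 655.0 in WM1119, and 655.9 and 652.2 in DMSO (log2 change 0.71 ± 0.14, adjusted p = 0.0288). HSP90B1, CRELD2, PDIA4 and CALR also rose, by 0.63 to 1.88 on the log2 scale. CRELD2 had 38.8 CPM in replicate 1 and 92.9 in replicate 2 of the combination. Without replicate 2 the median log2 change of the 19 was 0.46, with 0 of them below 0. Without replicate 1 it was 0.31, with 4 below 0. Of 7 glutathione genes GGT1 and GSR, which degrade and reduce glutathione, rose (median of the list 0.54), GGT1 with 43.5 and 76.2 CPM in the combination and 25.6 and 26.1 CPM in DMSO. The median of this list was 0.20 without replicate 2 of the combination, 0.62 without replicate 1 and 0.26 with the offset for transcript length and GC content. In VTP50469 and in WM1119 0 genes of the 8 lists were called, the lowest adjusted p being 0.0624, for SESN3 in VTP50469 (log2 change 2.20 ± 0.30).

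**Figure D4:**
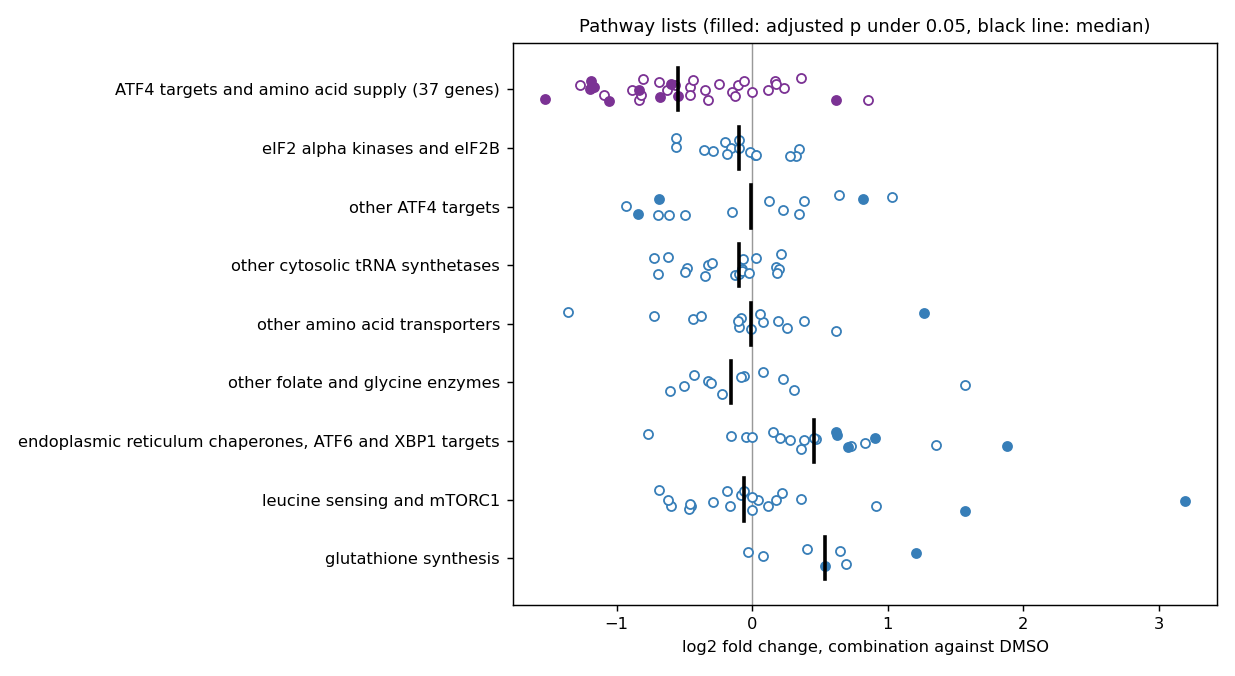
Log2 fold change in the combination against DMSO of each tested gene (point; filled, adjusted p under 0.05) in the amino acid and ATF4 genes and in the 8 other lists, with the median of each list as a black line. The median of the 37 members is at -0.55, that of the endoplasmic reticulum list at 0.46 and that of the glutathione list at 0.54, and the other 6 lists have medians between -0.15 and -0.01.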

How the data were processed

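Bulk RNA of MOLM-13 was sequenced after VTP50469 plus WM1119, VTP50469, WM1119 or DMSO, with 2 libraries per group. The authors mapped reads to hg38 with STAR 2.5.1b (submitters' processing notes) and deposited unnormalized expected counts for each gene symbol. The sources used here name no counting tool, strand setting or annotation, so reads of a gene and of an antisense or overlapping gene cannot be told apart.

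Expected counts were rounded. The quasi-likelihood F test of edgeR 4.0.16 (R 4.3.3; TMM, filterByExpr) was run in 1 fit of all groups on 12401 of 26475 symbols, and DESeq2 1.42.0 on 16403 genes with a count. The scripts were tested on simulated counts. ATF4, members called in any comparison and the lowest-p member of each role without a call are given per library. Further members (CHAC1, DDIT3, ASNS, SLC7A11, VLDLR and those given for the combination and DMSO only) were picked for this after their values were seen, and the rest are given as ranges or log2 changes. Of each other list at most the 3 genes lowest in p, or all those called, are named. The members and lists were chosen with earlier results of these data known. Length and GC content of canonical transcripts (GENCODE) were matched for 12113 tested genes (97.7%), with a loess span of 0.4 for the offset. Members were matched to RefSeq by symbol or synonym. The alternatives were DESeq2, other scaling (RLE, library totals), other filters (none, or 10 counts or more in each library), a replicate block, a fit of the compared groups alone, the length and GC offset, and leaving out each library.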

Additional observations from a re-analysis of the deposited data

How the results depend on the processing

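In the combination against DMSO 10 members were called. DESeq2 called 18 (17.7% of all genes), the length and GC offset 21 (23.3%) and the replicate block 6 (4.26%). A fit restricted to these groups called 0. Leaving out 1 library gave 0 to 27 calls, with 27 without replicate 1 of the combination, where 60.8% of all genes were called, and 0 without either DMSO library, where 69 and 79 genes were. CBS, DDIT4 and STC2 kept their calls in 6 of 8 such fits and SESN2, PSAT1, MTHFD2, CTH, PYCR1, SLC7A5 and SLC1A4 in 2 of 8, those without a combination library. In VTP50469 against DMSO 0 were called in the main fit. There DESeq2 called 1 (1.54% of all genes), the offset 1 (1.68%) and the fit restricted to both groups 11 (11.1%). In WM1119 against DMSO DESeq2 called 1 (0.62% of all genes) and the offset 1 (0.339%). Against VTP50469 the combination had 0 calls, 4 with DESeq2 (5.3% of all genes), 10 with the offset (5.94%) and 0 to 20 without 1 library, the 20 without replicate 1 of the combination (56.6%). Against WM1119 it had 1 call, 5 with DESeq2 (5.53%), 10 with the offset (7.69%), 0 with library size only, with no count filter, with the replicate block and with only the groups compared, and 0 to 19 without 1 library, the 19 without replicate 1 of the combination (54.2%). The departure from the sum had 0 calls, and 0 to 13 without 1 library, the 13 without replicate 1 of the combination (30.9%). Where a lone library stood for a group it was assumed to vary like the others, and the cause of these differences was not tested.

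Of the log2 changes in the combination against DMSO, 9 changed sign under an alternative, all of members that were not called. With the offset ATF4 was at -0.25, PPP1R15A at -0.19, EIF4EBP1 at -0.36, PHGDH at -0.18 and PCK2 at -0.15. PPP1R15A was at -0.0073 with library size only. WARS was at 0.0032 with RLE factors, 0.0066 with at least 10 counts in every library and 0.0021 with only the groups compared. Without 1 library the changes ran from -0.17 to 0.44 for ATF4, -0.87 to 0.054 for ATF3, -0.30 to 1.49 for DDIT3, -0.087 to 0.30 for PPP1R15A, -0.21 to 0.76 for EIF4EBP1, -0.055 to 0.47 for PHGDH, -0.16 to 0.14 for WARS and -0.40 to 0.10 for SARS. The 10 called members kept their direction in all 16 alternatives.

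Scaling by library size only moved the median log2 change of all genes in the combination to -0.10, and called 350 genes lower and 574 higher, against 426 and 726 with TMM. For libraries with the same replicate number, correlations of deviations from the group mean ran from -0.39 to 0.14. With 2 libraries per group and length trends in single libraries, these values cannot show whether the numbers mark a pairing. The block was not used in the main fit. Under the block CBS, CTH, DDIT4, PSAT1, SLC7A5 and STC2 were called in the combination, where 4.26% of all genes were called. With 2 libraries per group the called members lay at least 4.15 SE from 0, and members up to 3.85 SE from 0 were not called.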
